A study of Mus musculus with 10 samples.

Results

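The genes described here encode tumor necrosis factor (TNF), interleukin-6 (IL-6), 2 further ligands of the TNF family (*Tnfsf9* and *Tnfsf14*), the receptors of TNF, the alpha chain of the IL-6 receptor, and FAS and CD40, receptors of the TNF family with other ligands. They were measured in mouse neutrophils with and without vimentin. They were chosen by symbol, as the rows for *Tnf*, *Il6*, *Tnfsf9*, *Tnfsf14*, *Il6ra*, *Tnfrsf1a*, *Tnfrsf1b*, *Cd40* and *Fas* present in all 4 deposited tables of comparisons. Of these 9 genes, 8 had a row among the 13091 genes of the tables. *Cd40*, which encodes a TNF family receptor with a role in antigen-presenting cells, had none, and no value can be given for it.

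The neutrophils were grown from clonal progenitors of mouse bone marrow that had been immortalized with HoxB8 fused to the estrogen receptor. Such cells divide while estrogen is present and mature into neutrophils when it is withdrawn and IL-3 and G-CSF are supplied. The groups were unstimulated *Vim+/+* neutrophils and *Vim+/+* neutrophils after 1 hour with 25 ng/mL lipopolysaccharide (LPS), with 2 biological replicates each, and the same 2 conditions of *Vim-/-* neutrophils, with 3 each. That made 10 libraries in 4 groups. The labels give 129-SVEV as the strain of every group and call the *Vim-/-* cells a knockdown, whereas the methods derive them from knockout mice. Every group carried the HoxB8 fusion, and the marrow of every line was kept in IL-3 and IL-6 before transduction. Each line was grown from a single sorted cell. The labels give every replicate a line number, the same without and with LPS and different between replicates, but do not state that the numbers are clones. If they are, a difference between clones that has nothing to do with vimentin is carried into the genotype comparisons. How many mice gave the lines is not given in the sources used here.

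TNF is made as a membrane protein and cut free by a sheddase. It signals through TNFR1 (*Tnfrsf1a*), which has a death domain and is found on most cells, and through TNFR2 (*Tnfrsf1b*), which lacks that domain and is abundant on leukocytes. FAS, another death receptor of the family, triggers apoptosis. IL-6 binds the IL-6 receptor alpha chain (*Il6ra*), and the pair then engages gp130 (*Il6st*), which activates JAK kinases and STAT3. LPS is sensed by Toll-like receptor 4, and *Tnf* and *Il6* are well-known targets of the NF-κB pathway that it switches on.

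The tables hold fitted comparisons and no value per library, so each fitted log2 fold change is given with its standard error (SE). The SE is the error of the fitted difference, and the spread between replicates itself cannot be read. In what follows a gene passed when the adjusted p of the authors' deposited DESeq2 Wald test was under 0.05, and genotype differences are *Vim-/-* over *Vim+/+*. The deposited mean normalized count over all libraries (baseMean) and the fold changes together give an approximate level of each gene in each group, which assumes that the covariates of the model average out within a group. For all 8 genes the 4 comparisons closed within 1e-06 on the log2 scale. *Vim* checked the labels, since its log2 difference was -13.56 (SE 0.335) in unstimulated and -12.44 (SE 0.243) in LPS-treated *Vim-/-* neutrophils, with both adjusted p listed as 0. All 10 neutrophil markers had a row, with baseMeans from 11373 to 1290830. They took 7.49% of the summed baseMean, against 0.0840% for 5 of 6 monocyte or macrophage markers and 0.793% for 4 of 5 mast cell, basophil or eosinophil markers. Of the latter, *Prg2* (268319), *Epx* (142776) and *Cpa3* (26296) lay within the baseMean range of the neutrophil markers, and *Mcpt8* (2802) below it. The progenitor markers *Kit* and *Cd34* took 0.00656%. Among lymphocyte markers, *Nkg7* had a baseMean of 949 and *Cd79a* of 83.8, and the T cell markers *Cd3e*, *Cd4* and *Cd8a* had no row. All 4 dendritic cell markers and both erythroid markers had no row. In bulk libraries such as these, fewer cells of a type and less RNA per cell cannot be told apart.

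*Tnf* lies on chromosome 17 of GRCm38 (the build called mm10) from 35199367 to 35202007, on the minus strand, and *Il6* on chromosome 5 from 30013114 to 30019975, on the plus strand. The 250 bases before each annotated start are shown because these are the genes of the group that rose most with LPS. They are RefSeq sequence on GRCm38.p6, of the reference strain and not that of these cells, written 5′ to 3′ on the strand of the gene, at chr17:35202008-35202257 for *Tnf* and chr5:30012864-30013113 for *Il6*. Capitals mark matches to the motifs searched on both strands, which were TATAAA, the AP-1 motif TGANTCA and the NF-κB consensus GGGRNWYYCC. In these motifs R is A or G, W is A or T, Y is C or T, and N is any base.
Tnf: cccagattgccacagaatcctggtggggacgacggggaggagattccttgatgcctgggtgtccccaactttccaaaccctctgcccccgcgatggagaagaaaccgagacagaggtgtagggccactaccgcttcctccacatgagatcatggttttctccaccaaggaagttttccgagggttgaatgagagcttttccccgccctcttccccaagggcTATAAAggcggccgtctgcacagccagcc
Il6: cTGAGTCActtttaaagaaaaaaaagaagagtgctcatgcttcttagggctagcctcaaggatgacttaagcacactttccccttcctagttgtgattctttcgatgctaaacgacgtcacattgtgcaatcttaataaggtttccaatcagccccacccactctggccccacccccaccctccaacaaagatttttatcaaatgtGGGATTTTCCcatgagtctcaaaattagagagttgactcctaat
In the *Il6* sequence the capitals are an AP-1 match at -249 to -243 and a match to the NF-κB consensus at -44 to -35, counted from the annotated start. In the *Tnf* sequence they are TATAAA at -29 to -24. No exact match to the NF-κB consensus lay in these 250 bases of *Tnf*, and sites that depart from it or lie further away were not searched. Matches in a window of 250 bases occurred in 6.75% of 32851 promoters for the AP-1 motif, 3.90% for the NF-κB consensus and 12.4% for TATAAA. The motifs did not overlap in either sequence. Of the other members, *Tnfsf14* had an AP-1 match at -160 to -154 and *Fas* at -211 to -205, and a promoter was found for 7 of the 8 genes.

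LPS raised *Tnf* and *Il6* in both genotypes within 1 hour. *Tnf* was at about 1579 normalized counts in unstimulated *Vim+/+* neutrophils, 49469 after LPS, 1080 in unstimulated *Vim-/-* neutrophils and 62112 after LPS. By these fitted levels the lowest group was unstimulated *Vim-/-* and the highest LPS-treated *Vim-/-*, with both *Vim+/+* groups between them. The genotype difference after LPS did not pass. The deposited log2 fold change with LPS was 4.97 (SE 0.175, adjusted p = 2.42e-173), or 31.3-fold, in *Vim+/+* and 5.85 (SE 0.148, adjusted p listed as 0), or 57.5-fold, in *Vim-/-* neutrophils. These changes lay above those of 99.6% and 99.9% of the genes in the tables.

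*Il6* was far less abundant, at about 78 normalized counts in unstimulated *Vim+/+* neutrophils, 671 after LPS, 62 in unstimulated *Vim-/-* neutrophils and 826 after LPS. Its fitted levels fell in the same order as those of *Tnf*. However, neither genotype difference of *Il6* passed the Wald test (adjusted p = 0.670 without and 0.752 with LPS). LPS raised it by 3.10 on the log2 scale (SE 0.465, adjusted p = 7.13e-09), or 8.56-fold, in *Vim+/+* and by 3.73 (SE 0.390, adjusted p = 3.58e-19), or 13.2-fold, in *Vim-/-* neutrophils. The standard errors of *Il6* were larger than those of *Tnf* in all 4 comparisons, and the count behind it is lower.

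*Tnfsf9*, which encodes the T cell costimulatory ligand 4-1BBL, was at about 112 normalized counts in unstimulated *Vim+/+* neutrophils, 564 after LPS, 193 in unstimulated *Vim-/-* neutrophils and 463 after LPS. It rose 5.05-fold in *Vim+/+* neutrophils, with a log2 fold change of 2.34 (SE 0.556, adjusted p = 0.00236). In *Vim-/-* neutrophils the log2 fold change of 1.26 (SE 0.463) did not pass (adjusted p = 0.193). *Tnfsf9* lies on chromosome 17 from 57105287 to 57107758 and overlaps the non-coding gene *Gm11110* on the opposite strand. Whether the reads were counted by strand is not given in the sources used here.

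*Tnfsf14*, which encodes LIGHT, a ligand of the lymphotoxin β receptor and HVEM, was the ligand of the group with negative log2 changes. It stood at about 4516 normalized counts in unstimulated *Vim+/+* neutrophils, 2948 after LPS, 2385 in unstimulated *Vim-/-* neutrophils and 1274 after LPS. Both *Vim-/-* levels were below both *Vim+/+* levels. With LPS it fell by 0.91 on the log2 scale in *Vim-/-* neutrophils (SE 0.202, adjusted p = 0.000670), while the log2 change of -0.62 in *Vim+/+* neutrophils (SE 0.240) did not pass (adjusted p = 0.203). *Tnfsf14* lies on chromosome 17 from 57189474 to 57194181.

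**Figure D1:**
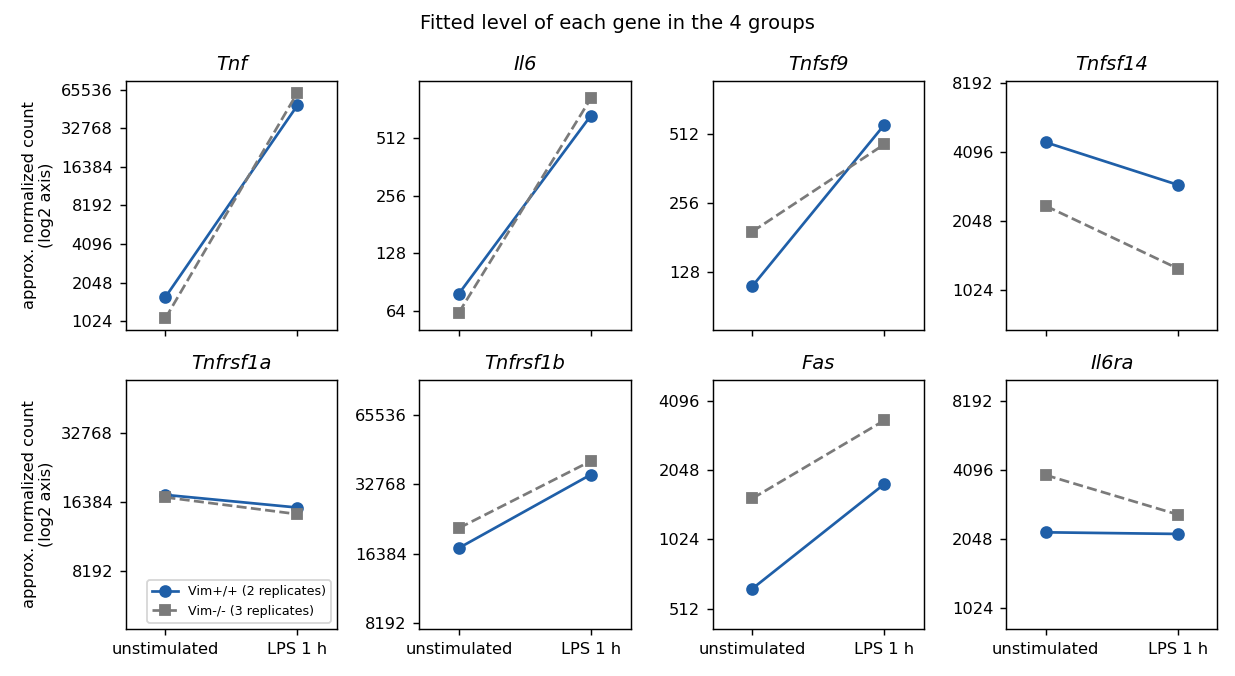
Approximate normalized count (log2 axis) of the 8 genes in unstimulated and LPS-treated neutrophils, with circles for *Vim+/+* (2 replicates) and squares for *Vim-/-* (3 replicates). The points are fitted group levels and carry no error bar, since the tables give errors for differences only. *Tnf* goes from 1579 to 49469 in *Vim+/+* and from 1080 to 62112 in *Vim-/-* neutrophils, whereas *Tnfrsf1a* stays between 14455 and 17542.

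The TNF receptors were abundant before stimulation, and *Tnfrsf1b* rose with LPS, whereas the changes of *Tnfrsf1a* did not pass. *Tnfrsf1a*, on chromosome 6 from 125349723 to 125362483, was at about 17542 normalized counts in unstimulated *Vim+/+* neutrophils, 15448 after LPS, 17115 in unstimulated *Vim-/-* neutrophils and 14455 after LPS. Its log2 changes with LPS were -0.18 (SE 0.170, 95% CI -0.52 to 0.15) in *Vim+/+* and -0.24 (SE 0.143, 95% CI -0.52 to 0.04) in *Vim-/-* neutrophils, and neither passed (adjusted p = 0.772 and 0.835). *Tnfrsf1b*, on chromosome 4 from 145212368 to 145246870, went from about 17322 to 36184 normalized counts in *Vim+/+* and from 21149 to 41443 in *Vim-/-* neutrophils. That was a log2 fold change of 1.06 (SE 0.166, adjusted p = 3.68e-08), or 2.09-fold, and of 0.97 (SE 0.139, adjusted p = 6.09e-10), or 1.96-fold. The difference in response between these 2 receptors was not tested.

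*Fas*, on chromosome 19 from 34290647 to 34327775, also rose with LPS. It was at about 625 normalized counts in unstimulated *Vim+/+* neutrophils, 1786 after LPS, 1544 in unstimulated *Vim-/-* neutrophils and 3381 after LPS. The unstimulated *Vim-/-* level was thus near the LPS-treated *Vim+/+* level, a pair of groups the tables do not compare. The log2 fold change with LPS was 1.51 (SE 0.374, adjusted p = 0.00437) in *Vim+/+* and 1.13 (SE 0.297, adjusted p = 0.00894) in *Vim-/-* neutrophils. *Fas* overlaps the small non-coding gene *Gm27818* on the same strand.

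*Il6ra*, on chromosome 3 from 89869324 to 89913196, was at about 2185 normalized counts in unstimulated *Vim+/+* neutrophils and 2150 after LPS, and at 3879 in unstimulated *Vim-/-* neutrophils and 2611 after LPS. LPS lowered it in *Vim-/-* neutrophils, by a log2 change of -0.57 (SE 0.153, adjusted p = 0.0121). In *Vim+/+* neutrophils the log2 change was -0.02 (SE 0.184, 95% CI -0.38 to 0.34, adjusted p = 0.996). *Il6ra* overlaps the antisense gene *Gm42809*.

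Counted over the group, 5 of the 8 genes passed with LPS in *Vim+/+* neutrophils, all of them higher. Across all genes tested, 1.8% of genes passed higher and 0.374% lower. In *Vim-/-* neutrophils 4 of the 8 passed higher and 2 lower, where 1.51% and 0.698% of all genes did. The LPS response had the same sign in both genotypes for all 8 genes, and *Tnf*, *Il6*, *Tnfrsf1b* and *Fas* passed in both.

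**Figure D2:**
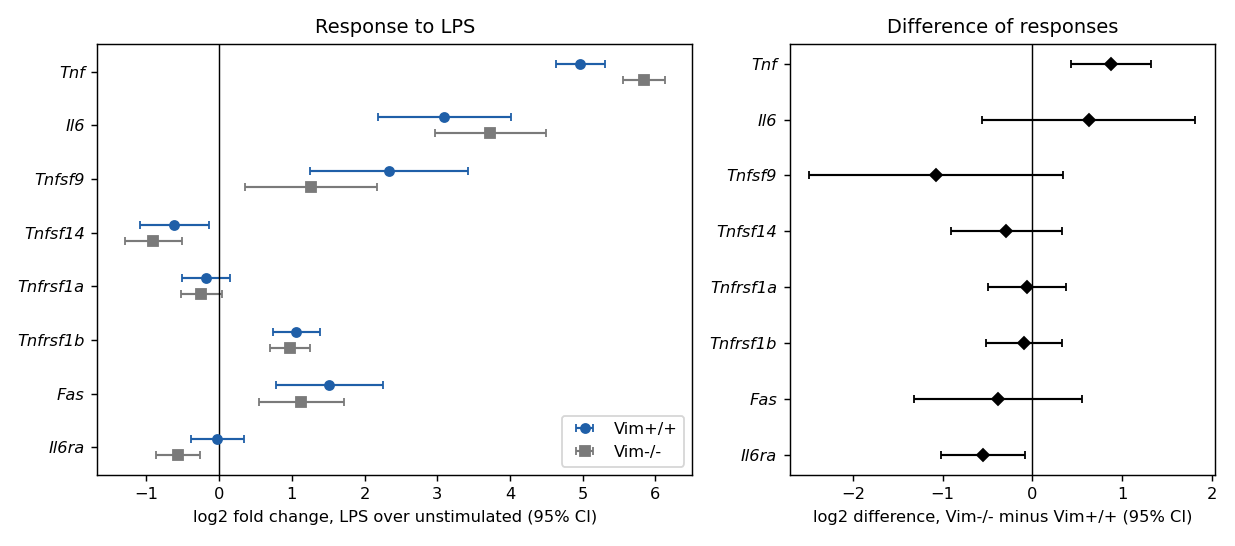
Left, deposited log2 fold change with LPS in *Vim+/+* (circles) and *Vim-/-* (squares) neutrophils for the 8 genes. Right, the difference between the responses, *Vim-/-* minus *Vim+/+*. Bars are 95% confidence intervals. The intervals of the *Tnf* and *Il6ra* differences, 0.43 to 1.33 and -1.02 to -0.08, leave out 0, but neither passed after adjustment over all genes.

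Whether the loss of vimentin changed the response to LPS was tested as the difference between the LPS fold changes of the genotypes. None of the 8 genes passed this normal test after Benjamini-Hochberg adjustment over all genes, where 0.0764% of genes did, and 2 of the 8 had an unadjusted p under 0.05, as did 791 of the 13091 genes. No other tool was run on this difference. *Tnf* had the smallest adjusted p of the group, with a response larger by 0.88 on the log2 scale in *Vim-/-* neutrophils (SE 0.229, 95% CI 0.43 to 1.33, adjusted p = 0.0991), that is 1.84 times the fold in *Vim+/+*. The response of *Il6* was 0.63 larger (SE 0.607, 95% CI -0.56 to 1.82, adjusted p = 0.979), an interval wide enough to hold the value of *Tnf*. *Il6ra* had a difference of -0.55 (SE 0.239, 95% CI -1.02 to -0.08, adjusted p = 0.777). *Tnfsf9* had the largest difference in size, -1.07, with an interval from -2.49 to 0.35 (adjusted p = 0.931). The 95% CI was -0.52 to 0.33 for *Tnfrsf1b* and -0.50 to 0.38 for *Tnfrsf1a*. *Fas* lay at -0.38 and *Tnfsf14* at -0.29, with adjusted p of 0.999 and 0.984. Hence *Tnfsf9*, *Tnfsf14* and *Il6ra*, which passed in a single genotype, are not shown to respond differently between genotypes.

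Without stimulation 4 of the 8 genes differed between genotypes, where 18.8% of all genes passed. *Fas* and *Il6ra* were higher and *Tnf* and *Tnfsf14* lower in *Vim-/-* neutrophils. *Fas* was 2.47-fold higher, with a log2 difference of 1.31 (SE 0.343, adjusted p = 0.00189). *Il6ra* was 1.78-fold higher, at 0.83 (SE 0.170, adjusted p = 3.14e-05). *Tnfsf14* was lower by a log2 difference of -0.92 (SE 0.222, adjusted p = 0.000580) and *Tnf* by -0.55 (SE 0.165, 95% CI -0.87 to -0.23, adjusted p = 0.00799). *Il6* (-0.33, SE 0.445), *Tnfsf9* (0.79, SE 0.518), *Tnfrsf1b* (0.29, SE 0.154) and *Tnfrsf1a* (-0.04, SE 0.158) did not pass, with adjusted p of 0.670, 0.310, 0.191 and 0.911.

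After LPS 2 of the 8 genes differed between genotypes, where 11% of all genes passed. *Tnfsf14* was lower in *Vim-/-* neutrophils by a log2 difference of -1.21 (SE 0.223, adjusted p = 3.32e-06) and *Fas* was 1.89-fold higher, at 0.92 (SE 0.330, adjusted p = 0.0480). The log2 difference of *Tnf* was now 0.33 (SE 0.160, 95% CI 0.01 to 0.64) and that of *Il6* 0.30 (SE 0.413, 95% CI -0.51 to 1.11), and neither passed (adjusted p = 0.195 and 0.752). *Il6ra* stood at 0.28 (SE 0.169, adjusted p = 0.333), *Tnfrsf1b* at 0.20 (SE 0.153, adjusted p = 0.503), *Tnfrsf1a* at -0.10 (SE 0.157, adjusted p = 0.799) and *Tnfsf9* at -0.28 (SE 0.507, adjusted p = 0.819).

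**Figure D3:**
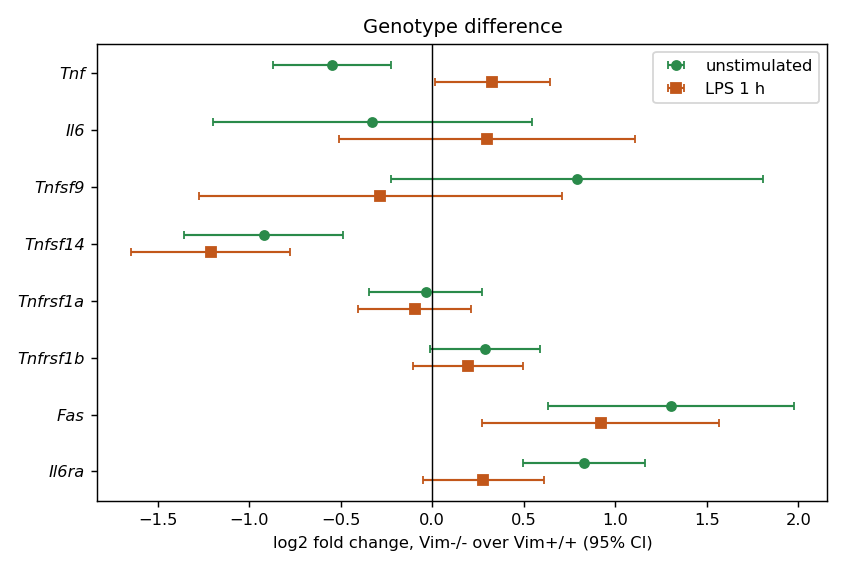
Deposited log2 difference between genotypes, *Vim-/-* over *Vim+/+*, for the 8 genes in unstimulated (circles) and LPS-treated (squares) neutrophils, with 95% confidence intervals. *Fas* lies to the right of 0 and *Tnfsf14* to the left in both conditions, while *Tnf* is at -0.55 without and 0.33 with LPS.

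The genotype statistics of all genes were wide. Once each Wald statistic was centred on the median and divided by the robust spread over all genes, 1.83 without and 1.50 with LPS, none of the 4 genes passed in unstimulated neutrophils, with adjusted p of 0.612 for *Tnf*, 0.297 for *Il6ra*, 0.353 for *Tnfsf14* and 0.620 for *Fas*. After LPS *Tnfsf14* still passed and *Fas* did not (adjusted p = 0.630). Centred on genes of like transcript length, the unstimulated differences of *Tnf* (-0.40, adjusted p = 0.0841) and *Il6ra* (0.32, adjusted p = 0.218) did not pass. Markers of cell type also differed between genotypes. Of the 10 neutrophil markers 5 passed in unstimulated neutrophils, all higher in *Vim-/-*, where 18.8% of all genes passed in either direction, and the median log2 difference of the 10 was 0.40, against 0.08 over all genes. After LPS 2 passed, where 11% of all genes did, with a median of 0.31 against 0.03. Of the 5 monocyte or macrophage markers with a row, *Csf1r* (-0.93 without and -1.19 with LPS) and *Adgre1* (-0.40 and -0.58) were lower, *Mrc1* was higher after LPS (4.15, with a baseMean of 90.9), and *Cd68* (0.07 and 0.02) and *Ly6c2* (0.23 and 0.09) did not pass. The median of the 5 was 0.07 without and 0.02 with LPS. The cytotoxic lymphocyte marker *Nkg7* was lower (-1.63 and -1.46), as was the B cell marker *Cd79a* after LPS (-4.19, with a baseMean of 83.8). The mast cell marker *Cpa3* (-0.96 and -0.72) and the progenitor marker *Cd34* (-1.01 and -0.67) were lower, whereas the progenitor marker *Kit* (0.21 and 0.18), the basophil marker *Mcpt8* (-0.30 and -0.02) and the eosinophil markers *Epx* (0.67 and 1.01) and *Prg2* (0.29 and 0.66) did not pass. The median of the 4 mast cell, basophil or eosinophil markers was -0.01 without and 0.32 with LPS. Their part in the differences of the cytokine and receptor genes was not tested.

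*Tnf*, *Tnfsf9* and *Tnfsf14*, 3 of the 8 genes, lie on chromosome 17, whose genes were lower as a group in *Vim-/-* neutrophils. Of 670 genes on that chromosome, 72.2% were lower without stimulation, with a median log2 difference of -0.34, against 44.1% and 0.08 of 12299 placed genes. After LPS the values were 73.6% and -0.28 against 46.4% and 0.04. Without stimulation 754 of the 12299 placed genes passed lower and 1553 higher, and 122 and 29 of the 670 on chromosome 17. Within 500 kb of *Tnf*, 32 of 39 neighbouring genes were lower in unstimulated *Vim-/-* neutrophils. Of these 39, 9 passed lower and 2 higher, and the median was -0.51 against the -0.55 of *Tnf*. Within 500 kb of *Tnfsf14*, 16 of 22 were lower, 5 passed lower and 1 higher, and the median was -0.34. The macrophage marker *Adgre1* (-0.40) was among those that passed lower. After LPS 29 of the 39 genes around *Tnf* were lower, with a median of -0.26 against the 0.33 of *Tnf*, and 18 of the 22 around *Tnfsf14*, with a median of -0.33 against its -1.21. When the fold changes were centred on the median of the chromosome, an alternative chosen after seeing the data, *Tnf* stood at -0.21 without LPS (adjusted p = 0.434) and at 0.61 with LPS (adjusted p = 0.00351). *Tnfsf14* stood at -0.58 without LPS (adjusted p = 0.0520) and passed with LPS. The part of the chromosome in these genotype differences was not tested. The LPS comparisons are made within a genotype.

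**Figure D4:**
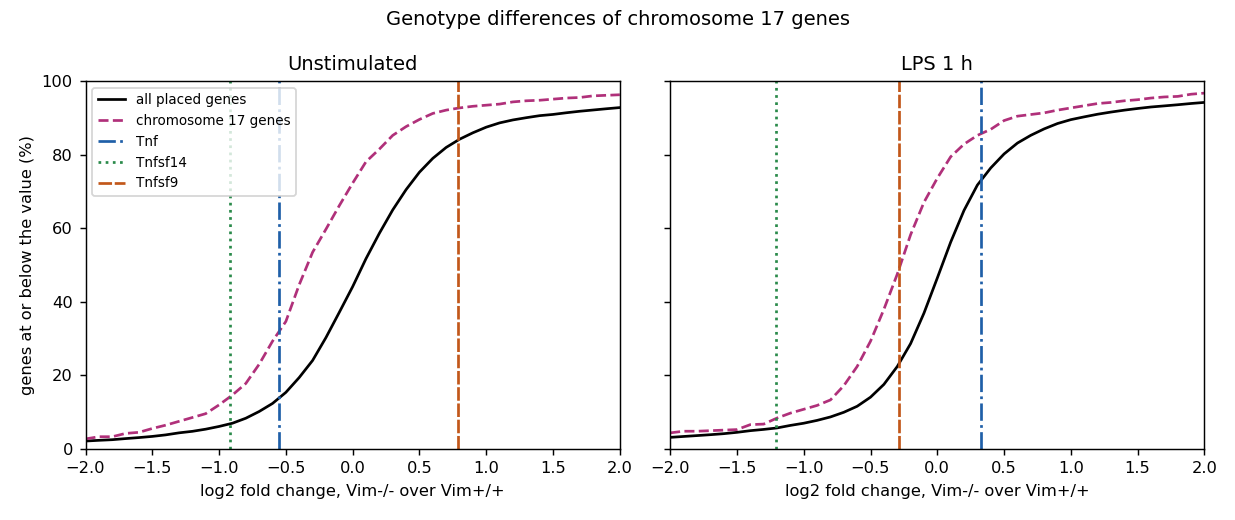
Cumulative share of genes (%) against the deposited log2 difference between genotypes, *Vim-/-* over *Vim+/+*, for chromosome 17 (dashed) and all placed genes (solid), without and with LPS, with vertical lines at *Tnf*, *Tnfsf14* and *Tnfsf9*. The chromosome 17 curve is shifted to lower values, with medians of -0.34 and -0.28 against 0.08 and 0.04.

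Per kilobase of the longest annotated transcript, baseMean was highest for *Tnf*, at 17796, followed by *Tnfrsf1b* at 7721 and *Tnfrsf1a* at 7453. *Tnfsf14* came next at 1403, then *Fas* at 1206, *Il6ra* at 326, *Tnfsf9* at 257 and *Il6* at 178. By the principal transcript *Il6ra* stood at 842 and *Il6*, at 365, was above *Tnfsf9*. These means pool all groups, so *Tnf* and *Il6* are carried by the libraries with LPS. *Il6st*, the gp130 partner of the IL-6 receptor, was at 5.37 per kilobase with a baseMean of 46.6, well under *Il6ra*, and was singled out after its value was seen. Its log2 changes with LPS were -0.14 and -0.50, and it passed in no comparison.

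All 27 genes listed for signalling downstream of the TNF receptors had a row, of which 4 rose with LPS in *Vim+/+* and 5 in *Vim-/-* neutrophils, where 1.8% and 1.51% of all genes rose, and none fell. The median log2 change of the list was 0.10 and -0.03, against 0.01 and -0.02 over all genes. *Tnfaip3*, which encodes the ubiquitin-editing inhibitor A20, rose by 4.25 (SE 0.164, adjusted p = 1.32e-143) and 5.60 (SE 0.140, adjusted p listed as 0). *Birc3*, which encodes the ubiquitin ligase cIAP2, rose by 1.34 and 1.10 (SE 0.149 and 0.125). The others, named after their values were seen, were *Tnip1*, a binding partner of A20, at 1.22 and 1.31, the caspase-8 inhibitor *Cflar* at 1.02 and 0.77, and *Traf1*, with a baseMean of 37.7, at 5.44 (SE 2.18, adjusted p = 0.227) and 5.32 (SE 1.47, adjusted p = 0.0170). The responses of *Traf1* differed by -0.12, which did not pass. Between genotypes without LPS, 2 of the 27 passed higher and 2 lower in *Vim-/-* neutrophils, where 18.8% of all genes passed in either direction. With LPS 2 passed higher and none lower, where 11% of all genes passed. *Ripk3*, the kinase of necroptosis, was higher in *Vim-/-* neutrophils without and with LPS (1.16 and 1.55). *Tab3* (0.52) was higher and *Sharpin* (-0.45) lower without LPS. *Tnfaip3* was lower without LPS (-0.77) and higher with it (0.58). Of the 27 genes, *Tnfaip3* was the 1 that passed the difference of LPS responses, where 0.0764% of all genes did.

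In the IL-6 pathway, 3 of 12 genes rose with LPS in each genotype and none fell, where 1.8% and 1.51% of all genes rose. These were *Socs3*, the feedback inhibitor of gp130 signalling, by 2.09 (SE 0.235, adjusted p = 2.77e-16) and 2.51 (SE 0.197, adjusted p = 2.51e-34), *Cebpb*, which encodes a transcription factor first known from IL-6 induction, by 0.60 and 0.75, and *Socs1* by 1.73 and 1.32. The median log2 change of the list was 0.23 in *Vim+/+* and 0.01 in *Vim-/-* neutrophils. Without stimulation 3 of the 12 passed between genotypes, where 18.8% of all genes did. These were *Jak1* (0.54), *Jak2* (0.58) and *Ptpn11* (0.52), all higher in *Vim-/-* neutrophils. After LPS *Jak2* (0.48) passed, where 11% of all genes did. Over all genes 188 passed without stimulation once statistics were rescaled by their robust spread. The genotype differences of the listed pathway genes were not checked that way. Of 10 other IL-6 family genes 3 had a row. None passed with LPS, where 1.8% and 1.51% of all genes passed higher and 0.374% and 0.698% lower. *Lif* was higher in *Vim-/-* neutrophils without and with LPS (1.46 and 1.49), where 18.8% and 11% of all genes passed. *Osm* was higher with LPS (0.96). *Il27* (-0.33 and 0.44) passed in neither.

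Other members of the TNF and TNF receptor families were also listed. Of 15 other ligands 6 had a row, and none of those with an adjusted p passed in the 4 comparisons. Between genotypes 18.8% and 11% of all genes passed. With LPS 1.8% and 1.51% of all genes passed higher and 0.374% and 0.698% lower. *Tnfsf4* with LPS in *Vim-/-* neutrophils, and *Cd40lg* there and in both genotype comparisons, had no adjusted p. *Ltb*, which encodes lymphotoxin β, changed with LPS by 0.38 (SE 0.323, adjusted p = 0.741) and 0.78 (SE 0.272, adjusted p = 0.136), and *Tnfsf12*, which encodes TWEAK, by 0.39 and -0.15. The list's median with LPS was 0.31 and 0.33. Of 24 other receptors 14 had a row, and *Relt* was the 1 that passed with LPS, where 0.374% and 0.698% of all genes passed lower, at -0.58 (SE 0.178, adjusted p = 0.0470) and -0.62 (SE 0.149, adjusted p = 0.00213). *Ltbr*, a receptor of LIGHT, changed by -0.34 and -0.16 and did not pass. Without stimulation *Tnfrsf13b* (0.90) and *Tnfrsf14* (0.93), which encodes the LIGHT receptor HVEM, were higher and *Tnfrsf26* (-0.63) lower in *Vim-/-* neutrophils. After LPS *Tnfrsf13b* (0.96) and *Tnfrsf26* (-0.68) passed. Of all genes, 18.8% passed without and 11% with LPS. Of the 6 genes listed for shedding of TNF and the IL-6 receptor 4 had a row. None passed with LPS, where 1.8% and 1.51% of all genes passed higher and 0.374% and 0.698% lower. *Adam17*, the sheddase of TNF, changed by 0.45 and 0.08 with LPS and by 0.13 and -0.24 between genotypes. *Adam10* (0.56) and *Rhbdf2* (0.42), which encodes a partner of ADAM17, were higher in unstimulated *Vim-/-* neutrophils, where 18.8% of all genes passed. Neither passed after LPS.

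**Figure D5:**
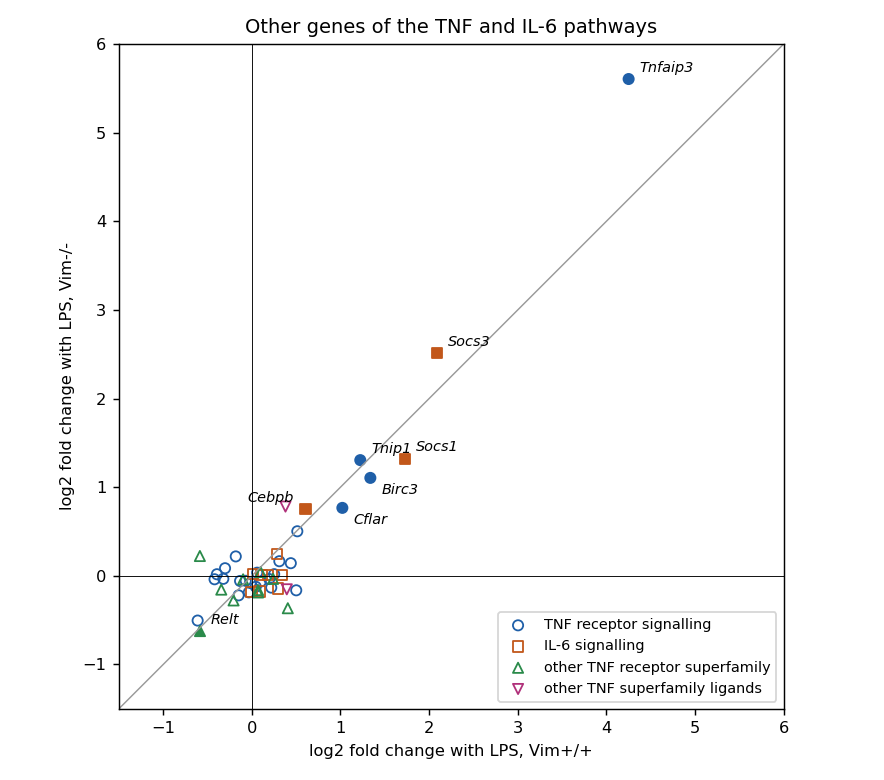
Deposited log2 fold change with LPS in *Vim+/+* against *Vim-/-* neutrophils for the other genes of the TNF and IL-6 pathways with a baseMean of at least 100, with a line of equal change. Filled symbols passed in at least 1 genotype. Most genes lie near 0, with *Tnfaip3* at 4.25 and 5.60 and *Socs3* at 2.09 and 2.51 away from the rest.

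The gene whose fitted levels over the 4 groups were most like those of *Tnf* was *Nfkbiz*, which encodes an inducible nuclear IκB protein. Likeness was the Euclidean distance between the 3 log2 differences from unstimulated *Vim+/+* neutrophils, over 10321 genes with a baseMean of at least 100. *Nfkbiz* was 0.16 away, with LPS responses of 5.04 and 5.73 and a genotype difference of -0.41 without LPS. *Tnfaip3* (0.88), the chemokine *Cxcl2* (1.07), *Il1a* (1.39) and *Prdm1* (2.03) followed. Nearest to *Il6* were the kinase *Map3k8* (0.37), the phosphodiesterase *Pde4b* (0.45), *Trim13* (0.48), *Cdc42ep2* (0.50) and *Ptgs2* (0.52), which encodes cyclooxygenase-2. The distances rest on fitted means of 4 groups.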

How the data were processed

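RNA sequencing of poly(A) RNA was done on neutrophils from 2 *Vim+/+* and 3 *Vim-/-* replicates of HoxB8 lines, unstimulated and after LPS. Reads were trimmed by the authors (Cutadapt 4.4) and mapped to mm10 and counted (STAR 2.7.10b). The authors then estimated 4 covariates with RUVSeq and fitted DESeq2 1.26.0 with them in the model. The gene annotation and the strand setting are not given in the sources used here. With 10 libraries, 4 groups and 4 covariates the model leaves 2 residual degrees of freedom. The 4 deposited tables hold comparisons. The deposited signal is baseMean, a mean over libraries of the authors' normalized counts. The deposited log2 fold changes and standard errors, the Wald statistic (a score) and the p-values, raw and adjusted, are those of the authors' model. No adjusted p was listed for 762 genes with LPS in *Vim-/-* neutrophils, nor for 254 in either genotype comparison. Depth per library is unknown, and precision is carried by the standard errors of the authors' model. Those are errors of fitted differences and not a direct measure of the spread between replicates.

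The authors' tests were used as deposited, with genotype signs turned. The difference of LPS responses was computed from fold changes and SEs by a two-sided normal test with Benjamini-Hochberg adjustment over 13091 genes. It leaves out the covariance that shared covariates bring, which cannot be read from the tables, and is approximate. Confidence intervals are 95%. The alternatives were a fold threshold, a stricter adjusted p, rescaled statistics, a filter at a baseMean of 100 several centrings and, for the difference of LPS responses, SEs taken from the genotype comparisons or summed. Positions are RefSeq on GRCm38.p6 and transcript lengths GENCODE M21, used for lengths only. Python 3.11.15, numpy 2.4.6, pandas 2.3.3, scipy 1.17.1 and matplotlib 3.10.9 were used.

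The members and lists were chosen with earlier results of these data known. From each pathway list were named the pair of genes that had the smallest adjusted p for LPS in either genotype at a baseMean of 100 or more and any gene passing the difference of LPS responses, and for *Tnf* and *Il6* the 5 genes nearest in profile. Every other gene named, including those named for a genotype difference, was chosen after its values were seen.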

Additional observations from a re-analysis of the deposited data

Results flagged for a closer look

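*Tnfaip3*, a target and inhibitor of TNF receptor signalling, differed between genotypes in its response to LPS. It rose by 4.25 on the log2 scale in *Vim+/+* and by 5.60 in *Vim-/-* neutrophils in the deposited tables, a difference of 1.35 (SE 0.216, adjusted p = 1.48e-06 by the normal test over all genes). Of all genes, 0.0764% passed that test. It is approximate, since it leaves out covariance through the shared covariates. Under the alternatives, applied to this gene after seeing the data, the adjusted p ran from 4.22e-07 to 0.0366, the latter with the standard errors summed.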

How the results depend on the processing

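Of 280 recomputed values of single genes, 258 stayed on their side of the threshold, 21 no longer passed, 1 newly passed (*Tnf* between genotypes after LPS, centred on its chromosome) and no value that passed changed sign. *Tnfrsf1a*, which did not pass between unstimulated genotypes, turned from -0.04 to 0.02 and 0.0039 when centred on transcript length. In *Vim+/+* neutrophils 5 genes passed with LPS under every alternative. In *Vim-/-* neutrophils 6 passed, or 3 with a log2 change over 1 required and 5 at an adjusted p under 0.01, without *Il6ra*. Between unstimulated genotypes 4 passed, but 1 with a log2 difference over 1 required, 0 with statistics rescaled by their robust spread, 2 centred on genes of like transcript length and 2 centred on the chromosome. Centred on transcript length, *Tnf* (-0.40, adjusted p = 0.0841) and *Il6ra* (0.32, adjusted p = 0.218) no longer passed. By principal transcript length, chosen after seeing the data, *Tnf* did not pass (adjusted p = 0.0603) and *Il6ra* did. After LPS 2 passed, but 1 with a log2 difference over 1, 1 at an adjusted p under 0.01, 1 with rescaled statistics, and 1 centred on genes with a baseMean of at least 100, where *Tnfsf14* passed and *Fas* did not (adjusted p = 0.0587). Centred on the chromosome, *Tnf* and *Tnfsf14* passed and *Fas* did not (adjusted p = 0.0658). Over all genes 2410 passed between unstimulated genotypes, and 188 after rescaling, 917 with the fold required and 1468 at an adjusted p under 0.01. After LPS these were 1416, 290, 683 and 802. With LPS 284 genes passed in *Vim+/+* neutrophils and 157 to 282 under the alternatives, in *Vim-/-* neutrophils 272 and 143 to 311, and for the difference of responses 10 and 3 to 11. The cause was not tested. None of the 8 genes passed the difference of LPS responses under any alternative, and the adjusted p of *Tnf* ran from 0.0581 to 0.128, or 0.99997 with the standard errors summed, where 3 genes passed in all. No paired analysis was possible because the tables hold fitted comparisons and no values per library, and for the same reason no replicate could be left out.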
